A study of Saccharomyces cerevisiae with 6 samples.

Results

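ITS2 is the internal transcribed spacer between 5.8S and 25S rRNA in the 35S pre-rRNA of Saccharomyces cerevisiae. All 232 of its nucleotides were taken by position, from 3020 to 3251 of the 6858 nucleotides of the transcript, and positions below count from the first nucleotide of ITS2 as 1. The pre-rRNA was in particles purified through TAP-tagged Mrd1, which binds RNA in early pre-ribosomes, from strains of the BY4741 background. The mutant carries mrd1-deltaRDB5-TAP (marker K.I.TRP1), taken here to mean that Mrd1 lacks its RNA-binding domain RBD5, with a second copy, HA-MRD1, under a GAL promoter (marker URA3). The Erb1-depleted cells carry 3HA-ERB1 under a GAL promoter (marker KAN) and intact MRD1-TAP (marker URA3). The labels list glucose and galactose media without saying which library was grown in which, so depletion is taken from the genotype and the sheet's name. The mutant has 2 libraries treated with 1M7 and 2 with the solvent DMSO, Erb1-depleted cells have 2 treated with 1M7, and with no strain free of both changes, what RBD5 loss and what Erb1 depletion contribute cannot be told apart. In the labels the 4 mutant libraries carry 3 different barcodes, since 1 DMSO and 1 1M7 library share one.

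ITS2 is removed while the large subunit matures. The endonuclease Las1 cuts it at site C2, the exosome then trims the 5' piece back toward 5.8S through an intermediate that keeps about 30 nt of ITS2, and 5'-3' exonucleases remove the 3' piece up to 25S. Before that, ITS2 folds and is bound by a group of assembly factors to which Erb1 belongs. The reagent 1M7 acylates the 2'-hydroxyl of flexible nucleotides, and reverse transcriptase stops beside the adduct, so a high SHAPE reactivity marks a nucleotide that is free to move. A base pair and a bound protein both lower it, and the values do not tell them apart.

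Each nucleotide has 1 deposited value per strain, in which the libraries are merged, so no difference below could be set against the spread between replicates and no p-value is given. Reactivity is the authors' normalized score, in which negative values were set to 0, and differences were taken on the raw score. Raw scores were centred on the mean of the transcript in each strain. A normalized 0 thus marks a raw score at or below that mean, not an absence of reactivity, and all levels are relative to the transcript. A nucleotide was counted as modified where its posterior probability from the BUM_HMM model was at least 0.95. ITS2 had values at all positions. The sequence is shown first for the mutant and then for Erb1-depleted cells, 5' to 3', with the modified nucleotides in capitals, so that the sites marked in each strain can be compared.
Mutant: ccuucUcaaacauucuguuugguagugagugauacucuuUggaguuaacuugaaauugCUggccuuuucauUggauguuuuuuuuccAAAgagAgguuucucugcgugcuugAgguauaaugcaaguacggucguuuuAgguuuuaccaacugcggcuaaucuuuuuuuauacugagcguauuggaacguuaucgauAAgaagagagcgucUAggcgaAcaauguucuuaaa
Erb1-depleted cells: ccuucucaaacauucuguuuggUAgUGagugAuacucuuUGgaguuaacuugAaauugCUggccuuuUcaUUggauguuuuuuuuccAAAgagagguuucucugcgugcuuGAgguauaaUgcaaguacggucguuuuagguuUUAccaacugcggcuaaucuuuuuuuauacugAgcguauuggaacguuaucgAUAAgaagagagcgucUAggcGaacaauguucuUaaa

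Relative to the transcript, ITS2 was weakly reactive in both strains, and less reactive in the mutant than in Erb1-depleted cells. Reactivity was above 0 at 57 nucleotides in the mutant (24.6%) and at 87 in Erb1-depleted cells (37.5%), with 50 of them shared. Over the whole transcript the shares were 50.9% in the mutant and 51.3% in Erb1-depleted cells. Mean normalized reactivity of ITS2 was 0.113 ± 0.290 in the mutant and 0.169 ± 0.298 in Erb1-depleted cells (SD over the 232 nucleotides, not over libraries), and the median was 0 in both. Nucleotides with a normalized reactivity of at least 1 numbered 8 in the mutant and 7 in Erb1-depleted cells. At a level of at least 0.7 there were 14 in the mutant and 19 in Erb1-depleted cells. On this score, the nucleotides that Erb1-depleted cells had in excess thus lay below 1, with high values among them. The score multiplies raw values by 5.21 in the mutant and 4.35 in Erb1-depleted cells. A normalized 1 is therefore a higher raw score in Erb1-depleted cells, and the statement does not extend to the raw score.

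The low level held against the other spacers. ITS1, between 18S and 5.8S, had a mean normalized reactivity of 0.350 in the mutant and 0.295 in Erb1-depleted cells. The 5' external transcribed spacer (5'ETS) had 0.319 in the mutant and 0.318 in Erb1-depleted cells. ITS2 is rich in uridine (37.1% of its bases), and 1M7 marks adenosines most often, so the base mix was taken into account. At the mean reactivity of each base in the rest of the transcript, the bases of ITS2 would average 0.255 in the mutant and 0.258 in Erb1-depleted cells, above the values measured. For the 5'ETS the same calculation gave 0.247 in the mutant and 0.255 in Erb1-depleted cells, below the values measured.

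In the mutant 16 nucleotides of ITS2 were modified (6.90%, Wilson 95% interval 4.29 to 10.9), against 18.5% over the transcript. Erb1-depleted cells had 31 (13.4%, interval 9.58 to 18.3), against 21.1% over the transcript. Such an interval takes nucleotides as independent and leaves out how libraries vary. At the share modified for each base outside ITS2, its bases would give 44.3 modified nucleotides in the mutant and 49.7 in Erb1-depleted cells. ITS2 thus held fewer modified nucleotides than its base mix gives, as did the 5'ETS (51 against 143.1 in the mutant, 73 against 161.3 in Erb1-depleted cells). ITS1 lay closer to its base mix, with 58 against 72.6 in the mutant and 68 against 81.7 in Erb1-depleted cells.

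**Figure D1:**
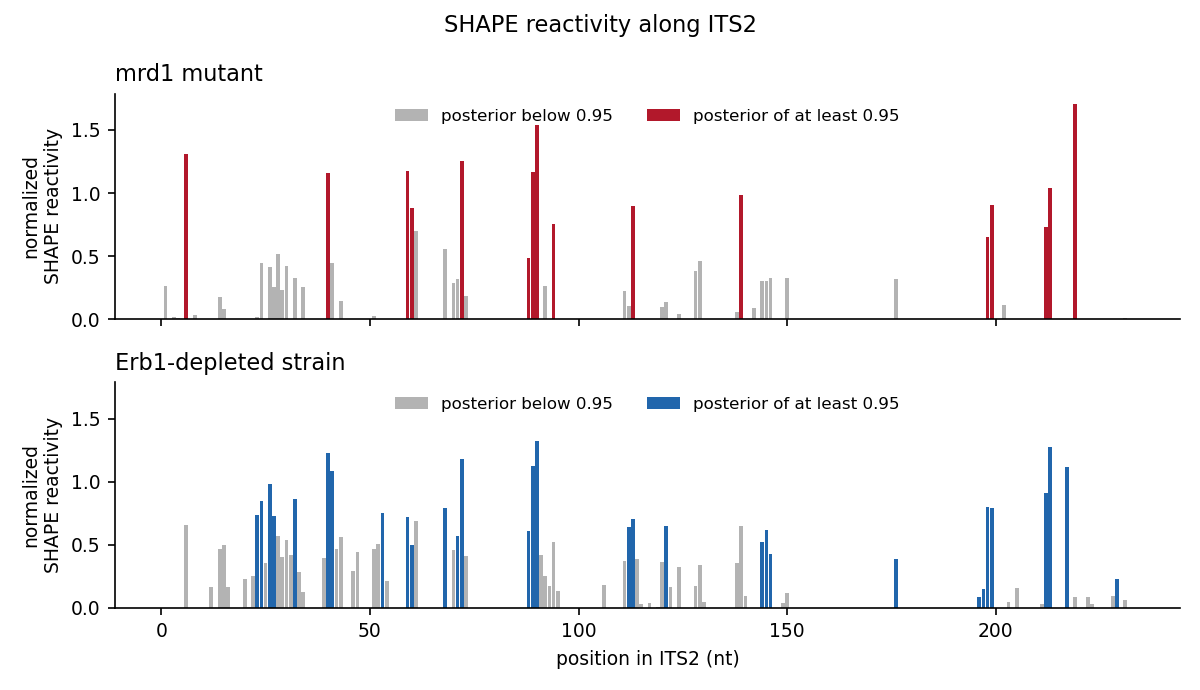
Normalized SHAPE reactivity (vertical axis, authors' score) at each position of ITS2 (horizontal axis, nt), with the mutant above and Erb1-depleted cells below. Coloured bars are the modified nucleotides, 16 in the mutant and 31 in Erb1-depleted cells, and grey bars the others. Erb1-depleted cells have added bars between positions 21 and 60, and the U runs at 78 to 85 and 163 to 169 have none in either strain.

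**Figure D2:**
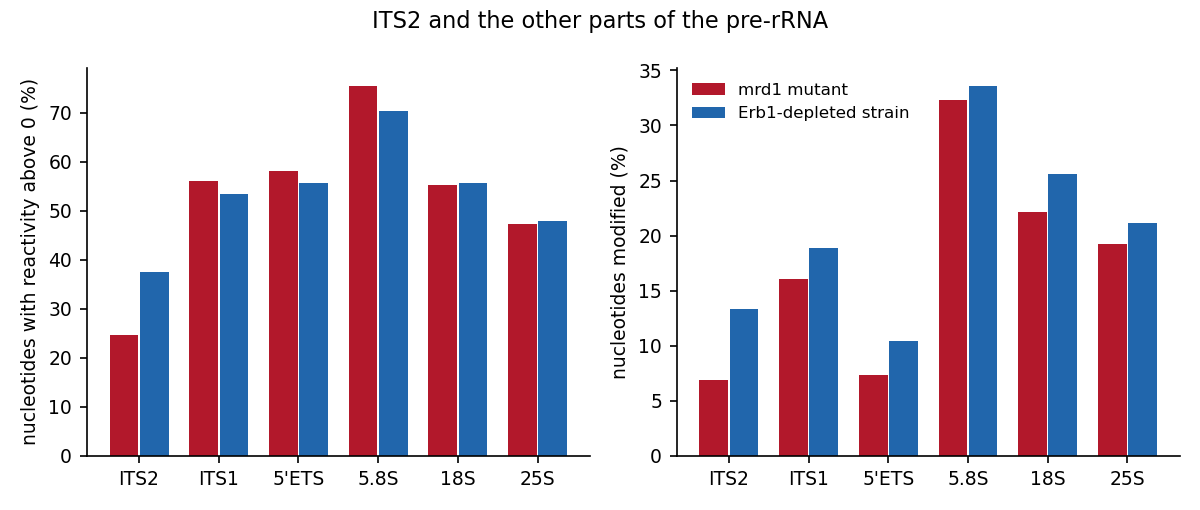
Share of nucleotides with a normalized reactivity above 0 (left, percent) and share modified (right, percent) in ITS2 and the other parts of the pre-rRNA, with the mutant left of Erb1-depleted cells in each pair. ITS2 has the lowest share above 0 of the 6 parts in both strains (24.6% in the mutant and 37.5% in Erb1-depleted cells).

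Both strains shared 12 modified nucleotides, which are 75.0% of those of the mutant and 38.7% of those of Erb1-depleted cells. Of these, 9 lay in 4 clusters of 2 or 3 adjacent nucleotides, and U40, U72 and A113 stood alone. The values of all 12 ran from 0.483 to 1.54 in the mutant and from 0.501 to 1.32 in Erb1-depleted cells. Their direction depended on the score. On the normalized score 7 were higher in the mutant and 5 in Erb1-depleted cells. On the raw score 3 were higher in the mutant and 9 in Erb1-depleted cells. The clearest was the adenosine run at 88 to 90, just 3' of the longer U run. There A90 had 1.54 in the mutant and 1.32 in Erb1-depleted cells, the highest reactivity of ITS2 in that strain. Its neighbour A89 had 1.16 in the mutant and 1.13 in Erb1-depleted cells, and A88 had 0.483 in the mutant and 0.606 in Erb1-depleted cells. The uridine U72 was about as reactive, with 1.26 in the mutant and 1.18 in Erb1-depleted cells. None of these 4 sites was called different by the rule given below.

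At C59 and U60 the mutant was the higher one on the normalized score, with 1.18 and 0.883 in the mutant against 0.723 and 0.501 in Erb1-depleted cells. C59 was the single cytidine modified in ITS2, in either strain. Near the 3' end, U212 and A213 had 0.730 and 1.04 in the mutant, against 0.911 and 1.27 in Erb1-depleted cells. A198 had 0.648 in the mutant and 0.796 in Erb1-depleted cells, and A199 had 0.905 in the mutant and 0.790 in Erb1-depleted cells. None of these 6 sites was called different, although the standardized difference of U212 and A213 passed 1 SD (-1.20 and -1.18), because no 5 nt around them held 3 such nucleotides. The shared list is completed by U40 and A113, described with the calls.

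The mutant alone had 4 modified nucleotides, U6, A94, A139 and A219. The largest of its reactivities in ITS2 was at A219, with 1.70 in the mutant and 0.0894 in Erb1-depleted cells. It was the 49th highest of the transcript in the mutant. U6, in the stretch next to 5.8S, had 1.31 in the mutant and 0.654 in Erb1-depleted cells. A94 had 0.755 in the mutant and 0.524 in Erb1-depleted cells, and A139 had 0.984 in the mutant and 0.648 in Erb1-depleted cells. Of these, U6 and A94 missed the threshold in Erb1-depleted cells by little, at posteriors of 0.890 and 0.886, so that only A139 (0.286) and A219 (0.0104) were far from it.

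Erb1-depleted cells alone had 19, all with a higher raw and normalized score there than in the mutant. On the normalized score they averaged 0.225 in the mutant and 0.641 in Erb1-depleted cells. They were U23, A24, U26, G27, A32, G41, A53, U68, U71, G112, U121, U144, U145, A146, A176, A196, U197, G217 and U229. G217 was the most reactive of them, at 0 in the mutant and 1.11 in Erb1-depleted cells. Some had low reactivity in spite of their posterior, such as A196 with 0 in the mutant and 0.0876 in Erb1-depleted cells and U197 with 0 in the mutant and 0.150 in Erb1-depleted cells. The lowest posterior among them was that of U229, at 0.972. A direction is built into such a list, since its members passed the threshold in that strain alone.

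Differences between the strains were called by the rule of the authors' deposited comparison, on raw scores smoothed over 3 nt. A call needed a standardized difference (mutant minus Erb1-depleted cells, in SD of all smoothed differences of the transcript) of at least 1, a Z-factor above 0, and 3 such nucleotides in 5. Among nucleotides modified in at least 1 strain, 2 of ITS2 were called higher in the mutant (0.862%, against 0.81% over the transcript) and 12 higher in Erb1-depleted cells (5.17%, against 5.15%). Both shares are near the background on this scale, and nothing particular to ITS2 is read from their number. The background itself moved with the scale. On each strain's own factor, at equal SD, quantile normalized or with negatives at 0, the share of the transcript called higher in the mutant was 1.39% to 2.93%, against 0.431% or 0.862% of ITS2. The share called higher in Erb1-depleted cells was 3.59% to 4.14% of the transcript on those scales, against 4.31% or 5.17% of ITS2. Without the filter on modification, 11 nucleotides were called higher in the mutant (4.74%, against 13.7% over the transcript) and 43 higher in Erb1-depleted cells (18.5%, against 11.4%). The mean raw difference over ITS2 was -0.0209 ± 0.0752 (SD over nucleotides), with a mean raw score of -0.0640 in the mutant and -0.0430 in Erb1-depleted cells. Raw scores also spread more widely in Erb1-depleted cells over the transcript, with an SD of 0.124 in the mutant and 0.150 in Erb1-depleted cells.

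The calls higher in Erb1-depleted cells were concentrated in nt 21 to 60. Those 40 nucleotides held 8 of the 12, and 25 of the 43 without the filter. This stretch was delimited after its values were seen. Its sequence is shown with the 25 called nucleotides in capitals, to show that they form 4 separate runs, of 8, 4, 9 and 4 nt. Smoothing and the need for 3 nucleotides in 5 favour calls that lie side by side:
nt 21 to 60: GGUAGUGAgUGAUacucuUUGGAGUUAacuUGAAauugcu
The stretch averaged a normalized reactivity of 0.168 in the mutant and 0.369 in Erb1-depleted cells, with 15 nucleotides above 0 in the mutant and 27 in Erb1-depleted cells. In the other 192 nucleotides of ITS2 the means were 0.102 in the mutant and 0.127 in Erb1-depleted cells. The standardized difference was negative at 32 of the 40 and averaged -1.06, against -0.17 in the other 192. The interruption at C35 and U36, at 0 on the normalized score in both strains, was called the other way on the raw score without the filter. With a mean raw difference of -0.0685, the stretch kept its direction when the scores were put on each strain's own factor, at equal SD, quantile normalized or with negatives at 0, where it ran from -0.0689 to -0.0385.

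In that stretch U23 had 0.0185 in the mutant and 0.735 in Erb1-depleted cells. A24 had 0.445 in the mutant and 0.849 in Erb1-depleted cells, and U26 had 0.412 in the mutant and 0.981 in Erb1-depleted cells. These 3 were the ones still called with the threshold raised to 2 SD. Further on, G27 had 0.259 in the mutant and 0.729 in Erb1-depleted cells. A32 had 0.325 in the mutant and 0.865 in Erb1-depleted cells, and G41 had 0.442 in the mutant and 1.09 in Erb1-depleted cells. Each of these was modified in Erb1-depleted cells and not in the mutant. A53, at 0 in the mutant and 0.755 in Erb1-depleted cells, had the lowest standardized difference of ITS2 (-2.53). U40 was already reactive in the mutant, with 1.16 against 1.23 in Erb1-depleted cells, and the smoothed value behind its call takes in U39 (0 in the mutant and 0.391 in Erb1-depleted cells) and G41.

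The remaining calls toward Erb1-depleted cells were A113, U121, G217 and U229. U121 had 0.134 in the mutant and 0.649 in Erb1-depleted cells, and U229, the third nucleotide before the last of ITS2, had 0 in the mutant and 0.229 in Erb1-depleted cells. A113 is an exception, since its own reactivity was higher in the mutant (0.894 in the mutant against 0.703 in Erb1-depleted cells) and its call came from the smoothing. It was lost without smoothing and on the 4 other scales.

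**Figure D3:**
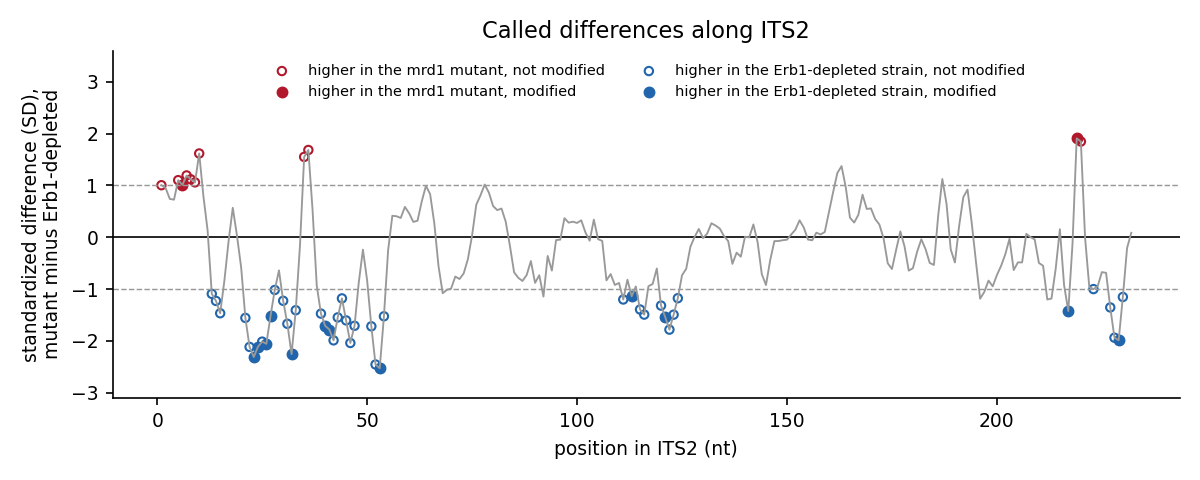
Standardized difference of the smoothed raw scores, mutant minus Erb1-depleted cells (vertical axis, SD of all smoothed differences of the transcript), at each position of ITS2 (horizontal axis, nt). Filled points are called nucleotides modified in at least 1 strain, open points the calls not modified in either, and dashed lines mark 1 SD. Most points below the lower line lie between 21 and 60.

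Toward the mutant, the calls were U6 and A219. The first 10 nucleotides, which adjoin 5.8S, all had a positive standardized difference (mean 1.05), and 7 of them were called higher in the mutant without the filter. Only U6 was modified there, and 5 of the 10 were above 0 on the normalized score in the mutant against 1 in Erb1-depleted cells. The last 30 nt of 5.8S leaned the same way, with means of 0.305 in the mutant and 0.213 in Erb1-depleted cells. The largest opposite differences of ITS2 lay 2 nt apart near its 3' end, at G217 (raw difference -0.278) and A219 (0.306). Both are shown in capitals, with U229, as the nucleotides of the last 23 that were modified in 1 strain alone:
nt 210 to 232: ucuaggcGaAcaauguucuUaaa
A218 between them was at 0 in both strains. The rule counts nucleotides past 1 SD in either direction, and G217, A219 and C220 passed it together. G217 had the largest raw difference of ITS2 toward Erb1-depleted cells, followed by G52 (-0.194) and U46 (-0.183), which were modified in neither. After A219, the largest toward the mutant were U36 (0.176) and C11 (0.165), at 0 on the normalized score in both strains.

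Around cleavage site C2 no nucleotide was called different, while single values went both ways. The 21 nucleotides of nt 130 to 150 averaged 0.114 in the mutant and 0.136 in Erb1-depleted cells on the normalized score, and 0 were called in either direction, also without the filter. With the filter, the transcript shares were 0.81% toward the mutant and 5.15% toward Erb1-depleted cells, so 0 among 21 nucleotides says little. Without it they were 13.7% and 11.4%, but such calls lie side by side, so a short window can hold none. The absence of calls is therefore not read as an unchanged site. The window of nt 130 to 150 had 1 modified nucleotide in the mutant and 3 in Erb1-depleted cells, with none in common. A139 was the one of the mutant, as given above. The neighbouring U144, U145 and A146 were modified in Erb1-depleted cells alone, with 0.306, 0.305 and 0.324 in the mutant against 0.521, 0.617 and 0.427 in Erb1-depleted cells. With the spacer divided at nt 140, near that site, the 5' part averaged 0.139 in the mutant and 0.222 in Erb1-depleted cells. The 3' part averaged 0.0742 in the mutant and 0.0877 in Erb1-depleted cells, and held 2 of the 12 calls toward Erb1-depleted cells and 1 of the 2 toward the mutant. In nt 1 to 30, the part kept in the trimming intermediate, the means were 0.140 in the mutant and 0.253 in Erb1-depleted cells. In the last 30 nt, next to 25S, they were 0.116 in the mutant and 0.138 in Erb1-depleted cells. The low level ran on into 25S, whose first 30 nt averaged 0.0505 in the mutant and 0.131 in Erb1-depleted cells.

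The difference between the strains varied with the base. Of the 53 guanosines of ITS2, 10 had a higher raw score in the mutant and 43 in Erb1-depleted cells (81.1%), with a mean difference of -0.0608 ± 0.0695 (SD over nucleotides). On the normalized score they averaged 0.0361 in the mutant and 0.168 in Erb1-depleted cells, and 0 guanosines were modified in the mutant against 4 in Erb1-depleted cells (7.55%). In the rest of the transcript 11.2% of guanosines were modified in the mutant and 16.6% in Erb1-depleted cells. All 11 guanosines of nt 21 to 60 were higher in Erb1-depleted cells, as were 32 of the 42 others. In the rest of the transcript 62.0% of guanosines were higher in Erb1-depleted cells, so a lean of this base is not confined to ITS2. Cytidines leaned the other way, with 25 higher in the mutant and 12 in Erb1-depleted cells, as they did in the rest of the transcript (768 in the mutant and 437 in Erb1-depleted cells). Adenosines, the most reactive base, averaged 0.250 in the mutant and 0.272 in Erb1-depleted cells, with 10 modified in the mutant (17.9%) and 13 in Erb1-depleted cells (23.2%), against 35.2% in the mutant and 38.7% in Erb1-depleted cells in the rest of the transcript. Uridines averaged 0.0978 in the mutant and 0.156 in Erb1-depleted cells, with 5 modified in the mutant (5.81%) and 13 in Erb1-depleted cells (15.1%), against 18.7% in the mutant and 19.8% in Erb1-depleted cells in the rest of the transcript. Unlike guanosines and cytidines, uridines leaned one way in ITS2 and the other way outside it. In ITS2 55.8% of them had a higher raw score in Erb1-depleted cells, with a mean difference of -0.0161. In the rest of the transcript 44.9% did, with a mean difference of 0.0106. Most of the lean in ITS2 came from nt 21 to 60, where 11 of 15 uridines were higher in Erb1-depleted cells (mean difference -0.0578). In the remainder of ITS2, 34 were higher in the mutant and 37 in Erb1-depleted cells (mean difference -0.0073). Whether base composition has a part in the difference of nt 21 to 60 was not tested.

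Reactivity was set beside the base pairs predicted by RNAfold from the sequence alone, which is a model and not a solved structure. In the minimum free energy fold of ITS2 alone, 86 nucleotides were unpaired (37.1%). They included 11 of the 16 modified in the mutant (68.8%) and 25 of the 31 modified in Erb1-depleted cells (80.6%). Mean normalized reactivity of unpaired and paired nucleotides was 0.216 and 0.0528 in the mutant, and 0.298 and 0.0927 in Erb1-depleted cells. This separation depended on the fold. With 30 nt of 5.8S and of 25S added on either side, 8 of the 16 nucleotides modified in the mutant and 13 of the 31 in Erb1-depleted cells (41.9%) were unpaired, in a fold that left 39.7% of all ITS2 nucleotides unpaired. The difference in means was 0.0171 in the mutant and 0.0401 in Erb1-depleted cells. Only 91 nucleotides had the same partner, or none, in these 2 folds and in the fold at maximum expected accuracy. Of these, 51.6% were unpaired. Among them unpaired nucleotides averaged 0.156 and paired ones 0.0522 in the mutant, and 0.254 and 0.113 in Erb1-depleted cells.

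Pairs common to all 3 folds formed 3 short hairpins and a stem around each of 2 of them. The hairpins are shown with the loop in capitals, because their pairing did not change with the prediction:
nt 7 to 21: caaacaUUCuguuug
nt 34 to 45: acucUUUGgagu
nt 140 to 148: gguUUUacc
The stem of the first had low values, with a mean of 0.00295 in the mutant and 0.0470 in Erb1-depleted cells. Its loop averaged 0.0860 in the mutant and 0.324 in Erb1-depleted cells. The second has the reactive U40 and G41 in its loop, which averaged 0.400 in the mutant and 0.676 in Erb1-depleted cells, while its stem averaged 0.0505 in the mutant and 0.144 in Erb1-depleted cells. The third, beside cleavage site C2, averaged 0.204 in the loop and 0.0682 in the stem in the mutant, and 0.379 and 0.0873 in Erb1-depleted cells. In each of these hairpins the loop exceeded the stem in both strains. The stem of 4 pairs around the second, between nt 27 to 30 and nt 48 to 51, was more reactive, at a mean of 0.181 in the mutant and 0.339 in Erb1-depleted cells, and holds G27. The nucleotides it encloses include the paired stem of the second hairpin, so they are not a loop. They averaged 0.137 in the mutant, below the enclosing stem, and 0.362 in Erb1-depleted cells. A stem of 5 pairs that encloses the third, between nt 131 to 135 and nt 153 to 157, had maxima of 0.000632 in the mutant and 0 in Erb1-depleted cells.

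**Figure D4:**
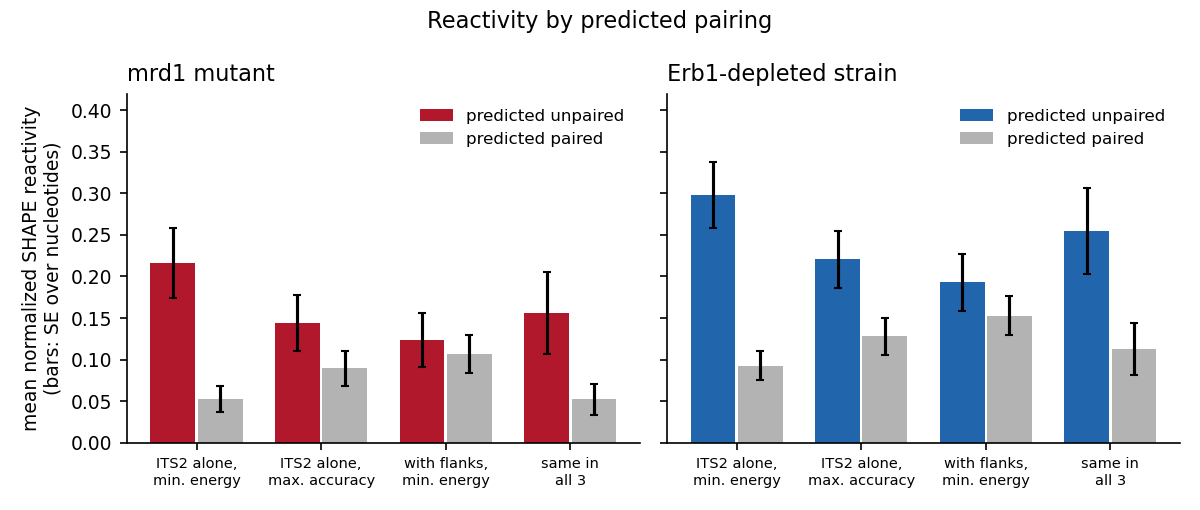
Mean normalized SHAPE reactivity (vertical axis, authors' score) of nucleotides predicted unpaired (coloured) and paired (grey) under 3 folds and for the 91 nucleotides treated alike in all 3, for the mutant (left) and Erb1-depleted cells (right). Error bars are the standard error over nucleotides. The gap is widest for the minimum free energy fold of ITS2 alone (0.216 against 0.0528 in the mutant). In the mutant it is narrower for ITS2 alone at maximum expected accuracy (0.144 against 0.0897) and nearly closes with flanks (0.124 against 0.107).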

How the data were processed

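The values are per-nucleotide scores of 1 deposited sheet, which has a raw and a normalized SHAPE reactivity score and a BUM_HMM posterior per strain, and a deltaSHAPE comparison. Per the file headers the normalized score is 2% to 8% normalized and missing coverage is marked. The reads were mapped by Novoalign, per the submitters' processing notes, in a version not given in the sources used here, as is the way raw scores and the background of Erb1-depleted cells were made. The sheet holds no read numbers, so depth is unknown. Libraries are merged, so no test was possible. Normalized scores were the raw scores times 5.21 for the mutant and 4.35 for Erb1-depleted cells, with negatives at 0.

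Region bounds came from the deposited annotation, whose parts were laid end to end by length. The calling rule, recomputed over the transcript, gave 1646 calls, and 390 with the filter on modification, of which 0 differed from the authors' deposited table. It was tested on simulated data. Of ITS2, 3 nucleotides had a Z-factor of 0 or less (median 0.989). Structures were predicted with RNAfold 2.7.2. Named were all nucleotides modified in either strain, all calls, the 5 most reactive in each strain, and the 3 largest raw differences in each direction. Windows were the first 10 and 30 nt, nt 130 to 150, the last 30 nt and both sides of nt 140. The region and these lists were chosen with earlier results of these data known. Alternatives were 2 other posteriors, 4 other scales, another threshold, no smoothing, no filter, the deposited bounds and 2 other folds.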

Additional observations from a re-analysis of the deposited data

How the results depend on the processing

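No paired analysis was possible because each strain has 1 merged value per nucleotide. The counts of modified nucleotides stayed within 1.5 times at posteriors of 0.9 and 0.99 and with the deposited bounds. The number of calls toward Erb1-depleted cells, 12, stayed within 1.5 times on the 4 other scales, without smoothing and at both posteriors. It was 3 at a threshold of 2 SD and 43 without the filter on modification. Of the 12 calls themselves, 10 or 11 were kept on the 4 other scales and 10 without smoothing. Others, such as U68, were added in some settings. U229 was lost with negatives at 0 and at a posterior of 0.99. The 2 calls toward the mutant were 1 after quantile normalization and without smoothing (A219), 0 at a threshold of 2 SD and 11 without the filter. A stricter threshold passes fewer nucleotides and a dropped filter more, by construction. No call turned its direction. In place of the mean normalized reactivity, the mean raw score of ITS2 was -0.0640 in the mutant and -0.0430 in Erb1-depleted cells, and the median normalized score 0 in both. The mean raw difference, -0.0209, was -0.0321 after quantile normalization and -0.0106 with negatives at 0, on the mutant's raw scale. Unpaired shares among modified nucleotides were 100% in the mutant (4 of 4) over nucleotides alike in all 3 folds, of which 51.6% were unpaired. In Erb1-depleted cells they were 41.9% with flanks and 58.1% at maximum expected accuracy, where 39.7% and 44.0% of all nucleotides were unpaired. Unpaired minus paired reactivity was 0.0171 with flanks and 0.0540 at maximum expected accuracy in the mutant, and 0.0401 with flanks and 0.0927 at maximum expected accuracy in Erb1-depleted cells. The stretch of nt 21 to 60 and the nucleotides alike in all 3 folds were chosen after seeing the data.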

Other observations

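ITS2 holds 2 runs of at least 5 uridines, at nt 78 to 85 and nt 163 to 169. All 15 of their nucleotides had a normalized reactivity of 0 in both strains. In the 13 such runs of the rest of the transcript, 23 of 66 nucleotides were above 0 in the mutant and 23 in Erb1-depleted cells (34.8% in each). Of all 86 uridines of ITS2, 21 were above 0 in the mutant and 26 in Erb1-depleted cells. Run lengths were not matched, and the 2 runs of ITS2 have 8 and 7 nt. The runs were looked at after the data were seen, and the mean raw scores of the first were -0.146 in the mutant and -0.171 in Erb1-depleted cells, and those of the second -0.190 in the mutant and -0.238 in Erb1-depleted cells.

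Across the 232 nucleotides, which are not independent replicates, raw scores of the mutant and Erb1-depleted cells had a Pearson r of 0.860 and a Spearman rho of 0.850. Over the whole transcript they were 0.868 and 0.838, in the 5'ETS 0.869 and 0.816, and in ITS1 0.921 and 0.909.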
